A study of Mus musculus with 12 samples.

Results

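Mitosis and G2/M genes were followed in mouse embryonic fibroblasts, wild type or mutant for Rb1, that had been starved of serum. The 41 genes form a list of cell division genes, from the cyclins and CDK1 to the cytokinesis machinery. Each was measured by probe sets annotated to that symbol alone, and by the probe set of highest mean over 12 arrays where there were several. In this way 40 of the 41 were measured, among 19938 genes in all. Ccnb1, which encodes cyclin B1, had no probe set annotated to it alone and was not analysed here.

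The 12 arrays formed 4 groups of 3: fibroblasts of the genotype Rb1 S/S, the Rb1 +/+ cells matched to them, fibroblasts of the genotype Rb1 L/L, and the Rb1 +/+ cells matched to those. The first pair is called the S set here and the second the L set. All 4 groups were grown in 10% serum to passage 4 and then held in 0.1% serum for 72 h, so no group of growing cells was compared. Rb1 encodes the retinoblastoma protein, which holds back E2F-driven genes on the way out of the cell cycle. What the S and L mutations do to that protein is not given in the labels, nor are the strain, the age of the embryos or any pooling. Whether replicates are separate embryos, separate cultures or neither is not given. The p-values therefore measure only the spread among these samples, which may be technical.

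Entry into mitosis is driven by CDK1 bound to a B-type cyclin, and exit from it by the anaphase-promoting complex, which marks cyclins and other proteins for destruction. In between, the spindle, the kinetochores and the checkpoint kinases hold and part the chromosomes, and the central spindle directs the cut between the daughter cells. In cells without serum the DREAM complex, which holds a relative of RB together with E2F4 and the MuvB core, represses most of these genes. When cells divide again, the same core joins B-Myb and FoxM1 to switch them on.

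The values are deposited log2 values of the arrays, so a step of 1 is a doubling. Levels of different genes are not compared, because probe sets differ in response. Array medians lay between 6.85 and 7.01. Array 1 of the S-set wild type differed from the rest, with an interquartile range of 3.10 against 3.39 to 3.60 on the other 11. On 2 arrays, number 1 of the L-set wild type and number 1 of L/L, Xist was at most 5.41 and the Y-linked gene Eif2s3y at least 9.09. On the other 10 arrays Xist was at least 10.4 and Eif2s3y at most 4.43, so these are called the male and the female arrays. Y-linked genes on the female arrays, which gave 3.82 to 5.51, served as a background level, and no member was at or below 5.51 on any array. All 10 fibroblast markers were above that level on every array. Rb1 itself averaged 8.68 ± 0.30 (SD, n = 3) in the S-set wild type, 9.55 ± 0.19 in S/S, 8.97 ± 0.32 in the L-set wild type and 9.33 ± 0.09 in L/L, and passed in neither mutant (limma, adjusted p = 0.0976 in S/S and 1 in L/L).

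The largest differences in mitosis genes lay between the 2 wild types. Of 40 members, 12 were lower in the L-set wild type than in the S-set wild type and none was higher, where 5.17% of all genes were lower and 3.54% higher (limma, adjusted p under 0.05 over 19938 genes, here called passing). The 12 include Cdk1, the kinase that starts mitosis, its cyclins Ccna2 and Ccnb2, the mitotic kinases Plk1 and Aurkb, and the cytokinesis genes Kif20a, Prc1 and Anln. No member passed in either mutant against its matched wild type. The median member was lower by 0.26 in S/S and higher by 0.16 in L/L on the log2 scale, and for 24 of 40 members both mutant means lay below that of the S-set wild type and above that of the L-set wild type.

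Averaged over the 40 members, the deviation from each gene's 12-array mean was -0.05, 0.35 and 0.37 on the S-set wild-type arrays 1 to 3 and -0.04, 0.11 and -0.03 on the S/S arrays. It was -0.47, -0.20 and 0.08 on the L-set wild-type arrays and 0.02, -0.11 and -0.03 on the L/L arrays. The S/S and L/L arrays were thus close to each other, while the arrays of each wild type spread over a wider range. The wild-type groups had SDs of 0.24 and 0.28, and the mutants 0.08 and 0.07. In bulk RNA, fewer dividing cells and less of these RNAs per cell cannot be told apart.

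**Figure D1:**
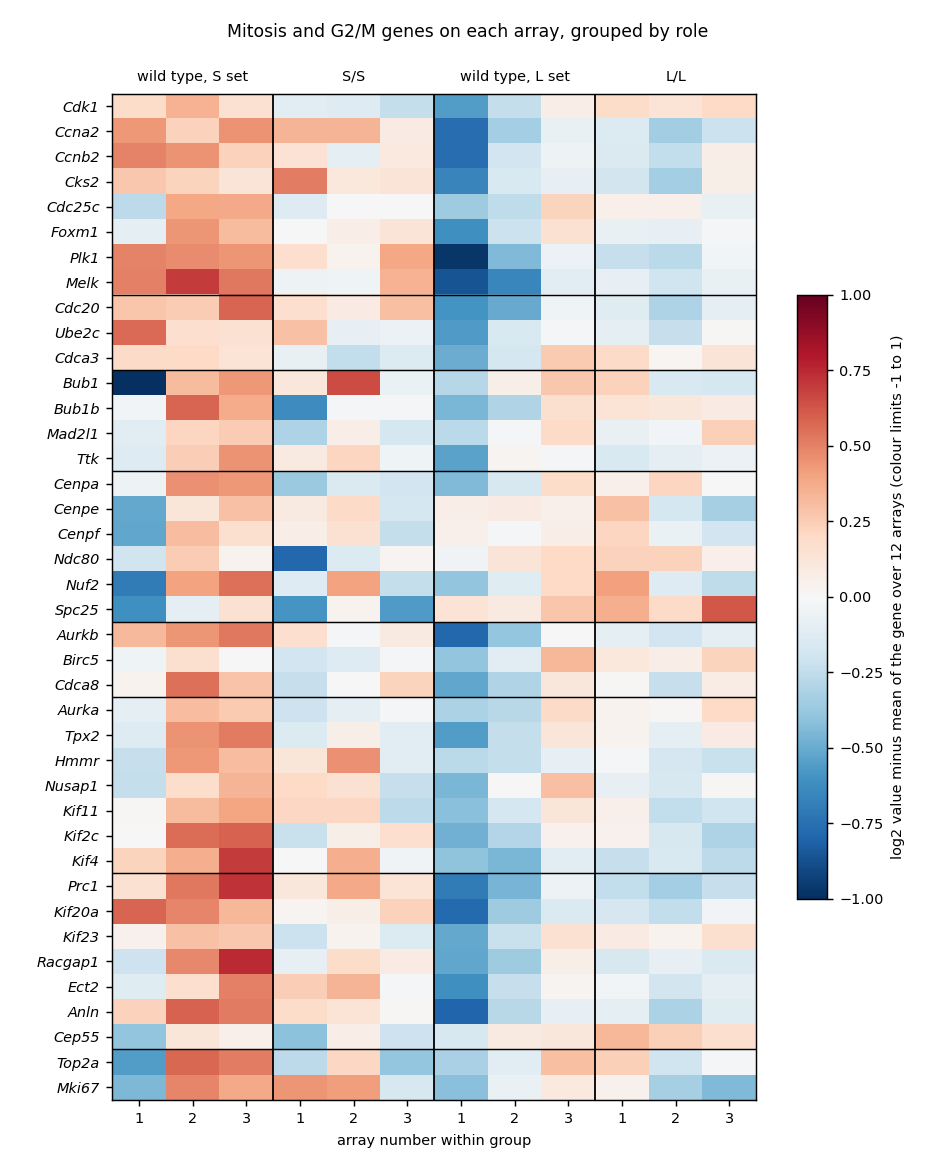
Log2 value of each of the 40 measured members (rows, grouped by role in the order of the text) on each of 12 arrays (columns), as the deviation from the gene's own mean over the 12 arrays. Reds are mostly on the S-set wild-type arrays 2 and 3 and blues on array 1 of the L-set wild type; colours stop at -1 and 1, which the Bub1 value on S-set wild-type array 1 passes.

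Many members shared one order of the groups. The S-set wild type had the highest mean in 30 of 40 members, against 39.1% of all genes. The L-set wild type had the lowest mean in 26 of 40, against 26.3% of all genes. Both mutant means lay between those of a higher S-set wild type and a lower L-set one in 24 of 40, against 14.2% of all genes. Compared with each other, L/L had the lower mean in 26 of 40, with a median L/L minus S/S difference of -0.14 over the members and 0.02 over all genes.

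The wild types are compared first, since both mutant comparisons rest on them. They share the genotype, and the set and the group cannot be told apart in this comparison. The median member differed by -0.43 (L-set minus S-set wild type), the median of all genes by -0.07, and 34 of 40 members were negative, against 62.0% of all genes. At an unadjusted p under 0.05, 24 of 40 were lower and none higher, against 12.8% of all genes lower and 10.9% higher. On 13 of 40 members all 3 L-set wild-type arrays were below all 3 S-set ones, against 16.1% of all genes, and the reverse held for none, against 11.5%.

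Melk, a kinase expressed in dividing cells, had the largest difference of the members. It measured 8.45, 8.64 and 8.47 in the S-set wild type, 7.89, 7.90 and 8.29 in S/S, 7.08, 7.29 and 7.83 in the L-set wild type, and 7.86, 7.74 and 7.86 in L/L. The wild-type groups did not overlap, and all 6 mutant arrays lay below the S-set wild type and above arrays 1 and 2 of the L-set wild type. The difference between wild types was -1.12 ± 0.17 (model SE, n = 3 against 3), a 2.17-fold lower level (limma, adjusted p = 0.0032).

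Plk1, the polo-like kinase that acts from mitotic entry to cytokinesis, measured 10.20, 10.18 and 10.14 in the S-set wild type and 9.87, 9.74 and 10.09 in S/S. In the L set it measured 8.73, 9.26 and 9.64 in the wild type and 9.47, 9.43 and 9.68 in L/L. The wild types differed by -0.96 ± 0.18, which is 1.95-fold (limma, adjusted p = 0.0075), and every L-set array was below every S-set array of either genotype.

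Among the cyclins, CDK1 and their regulators, all 8 measured genes were negative between the wild types, with a median of -0.62. The 5 that passed were Melk and Plk1, described above, and Cdk1, Ccna2 and Ccnb2. Cdk1 measured 10.34, 10.51 and 10.31 in the S-set wild type and 9.60, 9.92 and 10.22 in the L-set wild type, without overlap. Its difference of -0.47 ± 0.14 was 1.39-fold and only just passed (limma, adjusted p = 0.0482). Ccna2, the cyclin of S phase and early mitosis, measured 10.60, 10.40 and 10.62 against 9.41, 9.83 and 10.09, also without overlap, and fell by 0.76 ± 0.15 (limma, adjusted p = 0.0101). Ccnb2, a B-type cyclin that binds CDK1, fell by 0.73 ± 0.17 (limma, adjusted p = 0.0185). Foxm1, the transcription factor that activates G2/M genes, had 8.48, 9.02 and 8.90 against 7.97, 8.37 and 8.74, which overlap, and did not pass (-0.45 ± 0.17, limma, adjusted p = 0.134). The CDK1 partner Cks2 and the CDK1-activating phosphatase Cdc25c were at -0.50 and -0.30 and did not pass.

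Of the 3 genes of the anaphase-promoting complex pathway, the activator Cdc20 passed. It measured 9.01, 8.99 and 9.31 in the S-set wild type and 8.13, 8.22 and 8.69 in the L-set wild type, a fall by 0.76 ± 0.15 without overlap (limma, adjusted p = 0.0087). Its ubiquitin-conjugating enzyme Ube2c was at -0.54 (limma, adjusted p = 0.0572), and Cdca3, a trigger of mitotic entry that the complex degrades, at -0.31.

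Aurkb, the kinase of the chromosomal passenger complex, measured 9.42, 9.54 and 9.63 in the S-set wild type and 8.31, 8.71 and 9.10 in the L-set wild type. It fell by 0.82 ± 0.16, or 1.77-fold, without overlap (limma, adjusted p = 0.0079). Its partners Cdca8 (borealin) and Birc5 (survivin) were at -0.53 and -0.10 and did not pass.

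Central spindle and cytokinesis genes had a median of -0.61, and 3 of 7 passed. Kif20a, a kinesin of the central spindle, measured 9.89, 9.80 and 9.65 in the S-set wild type against 8.53, 8.96 and 9.17 in the L-set wild type, which did not overlap. It was 1.86-fold lower (-0.89 ± 0.15, limma, adjusted p = 0.0041). Prc1, which bundles the microtubules of the central spindle, fell by 0.87 ± 0.17, and the contractile ring scaffold Anln by 0.83 ± 0.16 (limma, adjusted p = 0.0087 for both). Their partners Kif23, Racgap1 and Ect2, which build and localise the division signal, were at -0.39, -0.61 and -0.45 and did not pass, nor did Cep55 at 0.09.

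Of 7 genes of spindle assembly and its motors, 2 passed: Kif4, a chromosome-bound kinesin (-0.75 ± 0.15, limma, adjusted p = 0.0087), and Kif2c, which takes apart microtubule ends (-0.63 ± 0.18, limma, adjusted p = 0.0460). The other 5 (the spindle kinase Aurka, its activator Tpx2, the microtubule-binding Hmmr and Nusap1, and the motor Kif11, which pushes the spindle poles apart) were between -0.51 and -0.15.

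The spindle checkpoint, the kinetochore and the chromosome structure genes held no passing member between the wild types. The 4 checkpoint genes (Bub1, Bub1b, Mad2l1 and Ttk) had a median of -0.26, and the 2 chromosome structure genes, Top2a and Mki67, were at -0.22 and -0.27. Of the 6 centromere and kinetochore genes, 4 were positive (Cenpe, Cenpf, Ndc80 and Spc25, from 0.05 to 0.35), with a median of 0.06. Spc25, a subunit of the NDC80 complex that grips microtubules, gave 7.21, 7.73 and 7.98 in the S-set wild type and 7.96, 7.91 and 8.10 in the L-set wild type.

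S-set wild-type array 1 was low in genes of most roles. It was the lowest of its group in 31 of 40 members, against 42.6% of all genes, and the highest in 5 of 40, against 48.5%. Its mean deviation was also the lowest of its group for DNA replication genes (-0.08), fibroblast markers (-0.24) and macrophage and blood cell markers (-0.41). For epithelial markers it was the highest (0.48). Array 1 minus the mean of arrays 2 and 3 was -1.76 for the checkpoint kinase Bub1, -1.18 for the kinetochore gene Nuf2, -1.10 for the topoisomerase Top2a and -0.88 for the proliferation marker Mki67. It was -0.82 for Racgap1, -0.65 for Cdc25c, -0.61 for Tpx2, -0.60 for Hmmr and -0.58 for Kif2c, genes of cytokinesis, CDK1 control and the spindle. For Ube2c, Kif20a and Ccnb2 it was 0.41, 0.17 and 0.16. Without that array the kinetochore median between the wild types became -0.17 with 5 of 6 genes negative. In that fit 22 members passed in place of 12, and 2078 of all genes in place of 1736. L-set wild-type array 1, a male array, was the lowest of its group in 36 of 40 members (35.3% of all genes). Without it 525 of all genes and 7 members passed: Anln, Aurkb, Ccna2, Kif20a, Kif4, Melk and Plk1. Without both male arrays 304 of all genes and 3 members passed (Kif20a, Melk and Plk1). Without the 2 male arrays and S-set wild-type array 1, 813 of all genes and 12 members passed. Of these members 10 were among the first 12. Cdk1 and Kif2c passed in 2 and 3 of the 12 fits that left out a single array, and both were lower in all 12 (Cdk1 from -0.63 to -0.31). Of 12 macrophage and blood cell markers 10 were positive between the wild types, with a median of 0.30, and none passed; their part in this difference was not tested.

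**Figure D2:**
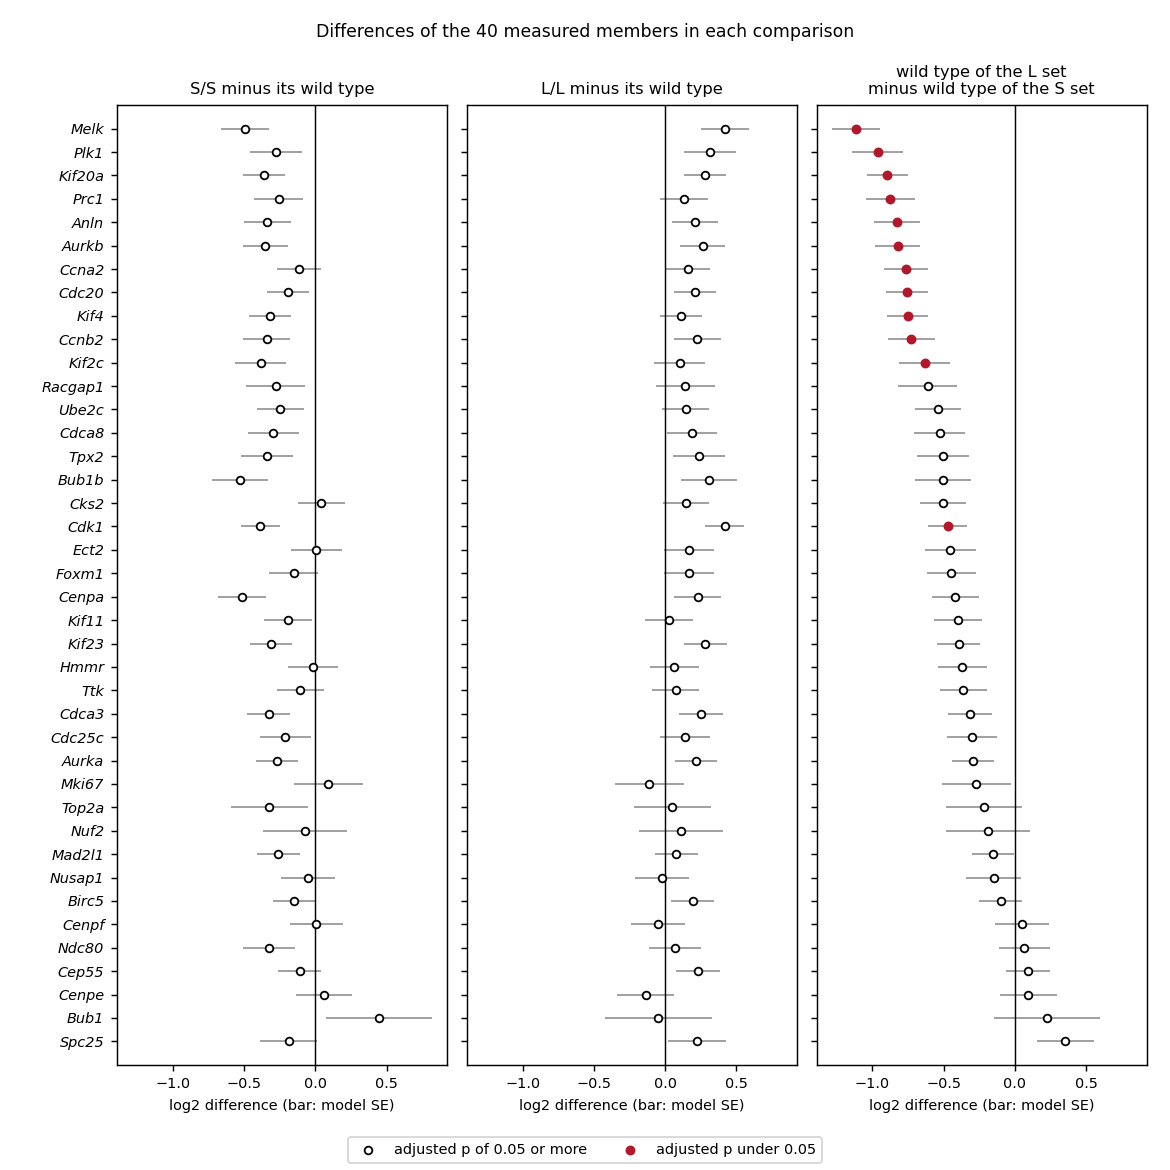
Log2 difference (x axis) of each measured member (rows, ordered by the wild-type difference) with the model SE as a bar, for each mutant against its matched wild type and for the L-set against the S-set wild type. Filled points pass at an adjusted p under 0.05: 12 in the right panel and none in the other panels, where most points lie below 0 in S/S and above 0 in L/L.

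The bases before the starts of all listed genes were searched for elements known from G2/M promoters. The counts describe the list, and the 12 members lower in the L-set wild type were not compared with the others. Promoter bases (RefSeq, GRCm38.p6) were at hand for 35 of the 41 genes. Those of Aurkb, Ccna2, Cdc25c, Foxm1, Kif20a and Tpx2 were not, so Aurkb, Ccna2 and Kif20a of the 12 were not searched. In the 250 bases before the start, on both strands, the cell cycle homology region (TTTGAA or TTCGAA), through which MuvB complexes bind, was found in 12 of 35, or 34.3%, against 19.6% of 27025 genes. The CCAAT box (CCAAT), a site of NF-Y, was found in 26 of 35, or 74.3%, against 37.5%, and both elements together in 10 of 35, or 28.6%, against 7.0%. E2F words (TTTCGCGC, TTTGGCGC, TTTCCCGC or TTTGCCGC) were found in 1 of 35, Cdk1, against 2.16% of all genes. The 140 bases before the start follow, 5′ to 3′ on the gene's strand, with matches in capitals, for 5 genes that were lower in the L-set wild type. They were picked by hand: Cdk1 (chr10:69352913-69353052, minus strand), Ccnb2 (chr9:70421555-70421694, minus strand), Plk1 (chr7:122159295-122159434, plus strand), Cdc20 (chr4:118437344-118437483, minus strand) and Melk (chr4:44300777-44300916, plus strand). The gene coordinates of Melk begin at 44300909, so its stretch reaches past that start.
Cdk1: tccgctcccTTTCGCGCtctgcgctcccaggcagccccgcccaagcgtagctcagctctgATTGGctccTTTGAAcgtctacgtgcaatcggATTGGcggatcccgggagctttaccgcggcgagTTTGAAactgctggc
Ccnb2: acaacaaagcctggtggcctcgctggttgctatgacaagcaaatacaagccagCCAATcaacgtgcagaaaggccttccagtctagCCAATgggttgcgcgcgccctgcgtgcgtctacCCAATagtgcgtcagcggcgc
Plk1: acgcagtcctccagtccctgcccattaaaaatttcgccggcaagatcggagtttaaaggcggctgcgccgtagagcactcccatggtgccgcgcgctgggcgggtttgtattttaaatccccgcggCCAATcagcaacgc
Cdc20: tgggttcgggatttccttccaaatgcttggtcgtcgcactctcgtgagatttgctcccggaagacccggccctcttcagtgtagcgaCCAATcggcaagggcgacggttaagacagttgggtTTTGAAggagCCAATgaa
Melk: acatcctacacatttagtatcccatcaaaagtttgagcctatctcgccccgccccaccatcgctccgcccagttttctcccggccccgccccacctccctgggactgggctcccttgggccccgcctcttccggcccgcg
The Cdk1 stretch holds TTTGAA starting 71 and 15 bases before the start, CCAAT on the opposite strand (read as ATTGG) at 80 and 48, and an E2F word at 131. Ccnb2 has CCAAT at 87, 54 and 21, and a cell cycle homology region further up, at 167. Cdc20 has TTTGAA at 18 between CCAAT at 53 and 8, and Plk1 a single CCAAT at 14. Melk, with the largest difference, has none of these words in the 140 bases. The matches are a description of letters and show no binding.

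In S/S cells the mitosis genes tended to lie below their matched wild type, but none passed, where 0.12% of all genes did. The differences of the members ran from -0.53 to 0.45 with a median of -0.26, against -0.04 over all genes, and 34 of 40 were negative, against 57.6% of all genes. At an unadjusted p under 0.05, 8 were lower and none higher, against 4.93% of all genes lower and 5.21% higher. On 10 of 40 members all S/S arrays were below all wild-type arrays, against 6.29% of all genes, and on none were all above, against 5.49%. These 10 were Cdk1, Ccnb2, Plk1, Melk, Cdca3, Cenpa, Aurkb, Kif20a, Kif23 and Anln.

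Cenpa, the histone H3 variant that marks centromeres, had the smallest p. It measured 8.91, 9.41 and 9.39 in the wild type and 8.58, 8.81 and 8.77 in S/S, which did not overlap (-0.51 ± 0.17, limma, adjusted p = 0.343). Cdk1 measured 10.05, 10.03 and 9.92 in S/S, below its 3 wild-type arrays, a difference of -0.39 ± 0.14 (limma, adjusted p = 0.390). Bub1b, which encodes the checkpoint protein BubR1, measured 7.69, 8.31 and 8.10 in the wild type and 7.10, 7.71 and 7.70 in S/S, which overlap (-0.53 ± 0.20, limma, adjusted p = 0.407). Melk differed by -0.49 ± 0.17 (limma, adjusted p = 0.381). None of these differences passed over all genes. With arrays weighted by their noise Cdk1, Cenpa and Bub1b did, and 415 of all genes passed in place of 24. That fit gave array 2 of the S-set wild type a weight of 5.88, against 0.08 and 0.79 for arrays 1 and 3. The group mean therefore rested mainly on array 2.

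By role the S/S medians were all negative, from -0.29 for the passenger complex to -0.12 for the chromosome structure genes. Mki67, which coats mitotic chromosomes, was at 0.09 ± 0.24: its wild-type arrays gave 8.30, 9.23 and 9.12 and its S/S arrays 9.18, 9.16 and 8.58. Top2a, which untangles DNA before chromosomes part, gave 8.18, 9.30 and 9.24 against 8.47, 8.94 and 8.35 (-0.32 ± 0.27). For both genes wild-type array 1 was the lowest of the 6 arrays. Without it 39 of 40 members were negative, the S/S median was -0.35 and Mki67 was at -0.20, and still no member passed. Bub1, the checkpoint kinase with the largest positive value (0.45 ± 0.37, limma, adjusted p = 0.656), rested on a wild-type array 1 at 6.43 against 8.14 and 8.25 on arrays 2 and 3.

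Macrophage and blood cell markers went the other way in S/S. All 12 were positive with a median of 0.71, and none passed. Their mean deviation was -0.41, -0.25 and -0.13 on the wild-type arrays and 0.43, 0.40 and 0.52 on the S/S arrays, and all 12 had group means above the Y-linked background in every group. Their part in the lower mitosis values of S/S was not tested.

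In L/L cells no member passed against the matched wild type, where 0.0401% of all genes did. The differences ran from -0.14 to 0.42 with a median of 0.16, against 0.02 over all genes, and 35 of 40 were positive, against 55.9% of all genes. At an unadjusted p under 0.05, 2 members were higher and none lower, against 2.68% of all genes higher and 0.582% lower. Cdk1 and Cep55, which recruits the machinery that severs the last bridge between daughter cells, were the 2 members with all L/L arrays above all wild-type arrays, against 9.71% of all genes. None had all L/L arrays below, against 5.1%.

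Cdk1 measured 10.34, 10.30 and 10.36 in L/L against 9.60, 9.92 and 10.22 in its wild type (0.42 ± 0.14, limma, adjusted p = 0.865). Arrays 1 and 3 of L/L were inside the range of the S-set wild type, 10.31 to 10.51, and array 2 was below it. Melk was at 0.42 ± 0.17, Kif20a at 0.28 ± 0.15 and Kif23, a kinesin of the central spindle, at 0.28 ± 0.15 (limma, adjusted p = 1 for each). Kif23 measured 8.43, 8.38 and 8.51 in L/L, and its wild-type arrays 1 and 2 (7.84 and 8.12) were below and array 3 among these. Plk1 was at 0.32, Aurkb at 0.26, Foxm1 at 0.17, Top2a at 0.05 and Mki67 at -0.11, and none of these passed.

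The size of the L/L differences depended on wild-type array 1. Its 3 wild-type arrays spread widely: array 3 was the highest of the group in 38 of 40 members, against 33.3% of all genes, and array 1 the lowest in 36. Without array 1 the L/L median was 0.02, with 23 members positive and 17 negative, and Cdk1 was at 0.26. Without array 3 the median was 0.31, with 38 of 40 positive. Array 1 of L/L, the other male array, was not low in these genes, at 0.02 on average. Macrophage and blood cell markers spread over the same wild-type arrays in the same order, at -0.88, -0.05 and 1.09, and over the L/L arrays at -1.25, 0.34 and 0.18. Of these 12 markers 11 were negative in L/L, with a median of -0.33, and none passed. The part of these markers, and of sex, in the mitosis values was not tested.

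**Figure D3:**
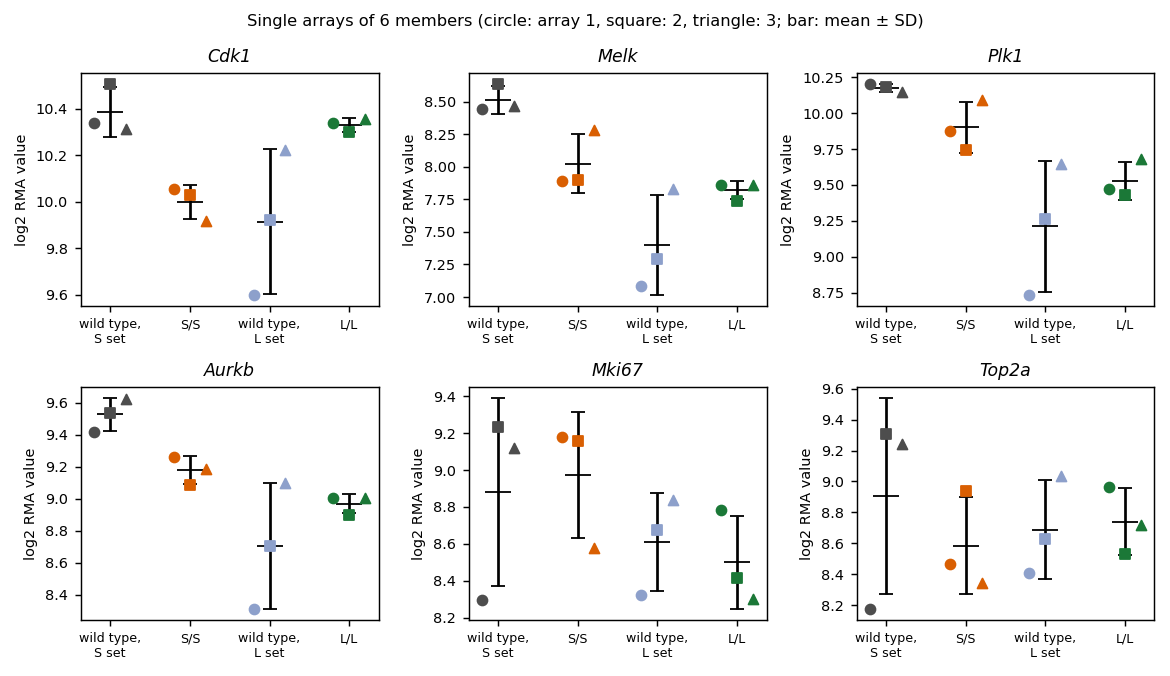
Log2 value on each array (y axis; circle, square and triangle for arrays 1, 2 and 3) with the group mean and SD for Cdk1, Melk, Plk1, Aurkb, Mki67 and Top2a. In Cdk1 the L/L arrays sit at 10.30 to 10.36 and the S/S arrays at 9.92 to 10.05; in Mki67 and Top2a array 1 of the S-set wild type lies far below arrays 2 and 3.

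The effects of the 2 mutants, each against its own wild type, were compared directly, and no member passed, where 0.015% of all genes did. The S/S effect was below the L/L effect in 36 of 40 members, against 60.2% of all genes, with a median difference of -0.39, against -0.06 over all genes. At an unadjusted p under 0.05, 13 were lower and none higher, against 3.79% of all genes lower and 2.71% higher. The smallest p-values were those of Cdk1 (-0.80 ± 0.19, limma, adjusted p = 0.364), Melk (-0.91 ± 0.24, limma, adjusted p = 0.454), Cenpa (-0.74 ± 0.23, limma, adjusted p = 0.619) and Kif20a (-0.64 ± 0.21, limma, adjusted p = 0.642). With arrays weighted by their noise Cdk1, Melk, Cenpa and Bub1b passed, and 293 of all genes passed in place of 3. In that fit the S-set wild type rested mainly on its array 2. A difference between effects contains the difference between the wild types, since the 2 wild types are subtracted. For Melk and Kif20a the L/L mean minus the S/S mean was negative all the same, at -0.20 and -0.25, while for Cdk1 and Cenpa it was 0.33 for both. The comparison of effects and that of the wild types reuse the wild-type arrays of both mutant comparisons. The members' signs there are thus tied to those in S/S and in L/L. The S/S and L/L comparisons share no array with each other.

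Further genes of cell division, 48 measured of 50 listed, were close to the members. Their median was -0.16 in S/S, 0.12 in L/L and -0.32 between the wild types. There 14 of 48 passed as lower and none as higher, against 5.17% and 3.54% of all genes. These were Cit, Espl1, Iqgap3, Kif14, Kif18b, Pimreg, Stil, Spag5, Dlgap5, Ska3, Kif22, Troap, Ckap2l and Pkmyt1, from -0.87 for the kinesin Kif18b to -0.41 for Pkmyt1, a kinase that inhibits CDK1. Espl1, the separase that cuts cohesin at anaphase, fell by 0.74 ± 0.13 and the cytokinesis kinase Cit by 0.57 ± 0.09 (limma, adjusted p = 0.0061 and 0.0041). None passed in a mutant. The smallest p-values there were those of Cdca5 (sororin, which protects cohesion) at -0.58 and Kif22 at -0.47 in S/S (limma, adjusted p = 0.108 and 0.255). In L/L they were those of Wee1, which inhibits CDK1, at 0.33 and Gtse1 at 0.39 (limma, adjusted p = 0.556 and 0.639).

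DNA replication genes, which E2F drives at the start of S phase, differed from the mitosis genes in L/L by their values. All 39 measured of 40 listed were positive, with a median of 0.44, and 1 passed, where 0.0401% of all genes did. This was Mcm6, a subunit of the replicative helicase, with 8.99, 9.01 and 9.03 in L/L against 7.44, 7.77 and 8.31 in the wild type (1.17 ± 0.17, limma, adjusted p = 0.0308). Without L-set wild-type array 1, 36 of 39 replication genes were still positive with a median of 0.36, while the mitosis members had 0.02, and no replication gene passed, Mcm6 included. Averaged over the list, the L/L arrays were at 0.21, 0.16 and 0.22, above all 3 of their wild type (-0.47, -0.32 and -0.02) and close to S-set wild-type arrays 2 and 3 (0.22 and 0.20). The mitosis members on the L/L arrays, at 0.02, -0.11 and -0.03, were within the range of their wild type. The difference between the 2 lists was not tested. In S/S the replication median was -0.17 with no gene passing, Orc1 (-0.37) and Chaf1b (-0.42) being nearest. Between the wild types it was -0.43, and 12 of 39 replication genes passed as lower, against 5.17% of all genes. These were Chaf1b, Pole, Pola2, Orc1, Lig1, Mcm5, Mcm6, Mcm2, Cdc45, Cdc6, Fen1 and Mcm3.

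**Figure D4:**
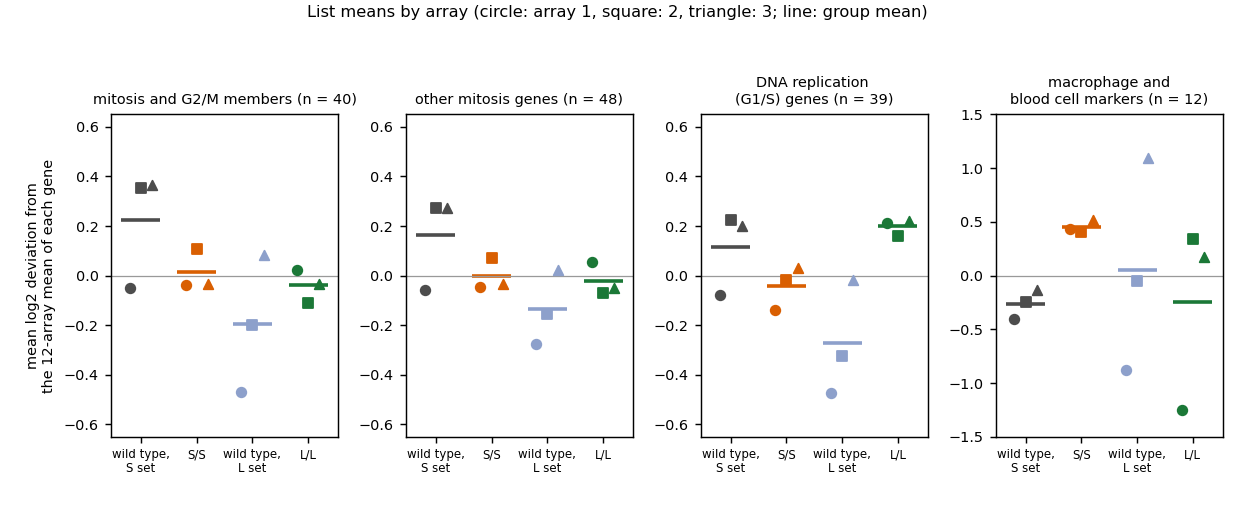
Mean deviation of each array (points; lines are group means) from the 12-array mean of each gene, in log2 units, for the 40 mitosis members, 48 other mitosis genes, 39 DNA replication genes and 12 macrophage and blood cell markers; the last panel has a wider y axis. L/L arrays lie within the range of their wild type for the 40 members and above it for replication genes (0.16 to 0.22 against -0.47 to -0.02); for the other mitosis genes array 1 of L/L, at 0.05, is above the highest wild-type array, at 0.02.

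Among regulators of these genes, 5 of 20 passed between the wild types, and the list's median of -0.10 was close to the -0.07 of all genes. Over all genes 5.17% passed there as lower and 3.54% as higher. Of these 20 genes of the MuvB core, its MYB and DREAM partners and the pocket and E2F proteins, 4 were lower in the L-set wild type: the repressors E2f7 (-0.89 ± 0.10) and E2f8 (-1.20 ± 0.17), the E2F partner Tfdp1 (-0.54 ± 0.10) and the DREAM subunit E2f4 (-0.48 ± 0.12). Mybl1, a relative of B-Myb, was higher (0.82 ± 0.23, limma, adjusted p = 0.043). None of the 20 passed in a mutant; their medians were -0.04 in S/S and 0.16 in L/L, and after Rb1 the smallest p-values were those of Mybl1 in S/S (0.91, limma, adjusted p = 0.197) and Tfdp1 in L/L (0.38, limma, adjusted p = 0.426). Of 7 listed CDK inhibitor genes 6 were measured, and none of these passed in a mutant. Cdkn1a had no probe set annotated to it alone and was not analysed. Cdkn1b, which encodes p27, was at -0.28 in S/S, and Cdkn2a, which encodes p16 and p19ARF, at 0.37 in L/L. Cdkn1c, which encodes p57, was higher in the L-set wild type (0.52 ± 0.11, limma, adjusted p = 0.0151). Of the 10 fibroblast markers 7 were positive between the wild types, with a median of 0.29, and 2 passed there, Thy1 lower (-0.49 ± 0.11) and Dcn higher (0.35 ± 0.10). In L/L 9 of the 10 were negative, with a median of -0.19, and in neither mutant did any pass. Their part in the mitosis values was not tested. Epithelial markers passed in no comparison, and of the 8 endothelial markers Tek alone passed, higher between the wild types (0.58 ± 0.12). In S/S 4 of the 8 were positive and 4 negative, from -0.18 to 1.62 with a median of 0.075. At an unadjusted p under 0.05, 3 were higher in S/S and none lower, against 5.21% and 4.93% of all genes. Their mean deviation was -0.22, -0.26 and -0.15 on the S-set wild-type arrays and 0.10, 0.05 and 0.13 on the S/S arrays. Their part in the mitosis values was not tested.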

How the data were processed

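Expression was measured in 12 RNA samples, each on its own Affymetrix Mouse Gene 1.0 ST array. The authors deposited RMA values made with Partek, per the design text of the series, an array method that corrects background, normalizes arrays to each other and gives each probe set a summary value. The deposited values are on a log2 scale, as read from their range. The Partek version, the set of arrays normalized together and the genome build are not given in the sources used here. Mouse embryonic fibroblasts are primary cells from embryos.

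Of 35556 probe sets, the supplied annotation gave 1 symbol to 21789, several to 1621 and none to 12146. Only the first were used. For 999 genes with several probe sets, including 2 members (38 of 40 had 1), the probe set with the highest mean over 12 arrays was kept, leaving 19938 genes with no filter on dim values. The test was limma's (3.58.1, R 4.3.3), with 4 group means over 12 arrays (8 residual and 5.19 prior degrees of freedom), two-sided, with Benjamini-Hochberg adjustment over 19938 genes within each comparison and a threshold of 0.05. The fit was tested on simulated data. Lists are described by counts and medians beside those of all genes, with no test of a list. Precision is limited by the number of arrays.

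The members and gene lists were chosen with earlier results of these data known. Members were named when among the 4 of smallest p in a comparison; Cdk1, Foxm1, Plk1, Aurkb, Mki67 and Top2a were always named. Genes of the other mitosis, replication, regulator and CDK inhibitor lists were named when they passed, or, where none passed in a mutant, for the smallest p-values there. Cell type markers were named only when they passed. The other members were named for their role, after their values were seen. The alternatives were leaving out each array, both male arrays or others, the replicate number as a block, quantile normalization, median centring, the mean of probe sets, a mean of at least 6, each set fitted alone, a mean-variance trend and array weights. Promoter bases are from RefSeq (GRCm38.p6).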

Additional observations from a re-analysis of the deposited data

Results flagged for a closer look

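Cdk1 moved in opposite directions on single arrays of the 2 mutants. All 3 S/S arrays were below all 3 of their wild type, which held for 6.29% of all genes. All 3 L/L arrays were above all 3 of theirs, which held for 9.71% of all genes. The L/L difference was smaller without L-set wild-type array 1. The S/S effect minus the L/L effect was -0.80 ± 0.19 on the log2 scale and did not pass over all genes (limma, adjusted p = 0.364). Groups of 3 arrays were not tested for single outlying arrays.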

How the results depend on the processing

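Median differences of the members kept their sign in every alternative run. In L/L, however, the median fell to 0.0117 without both male arrays and to 0.0156 without L-set wild-type array 1. The median over all genes in L/L was 0.0151 in the main fit. Leaving out single arrays gave -0.35 to -0.16 in S/S, 0.02 to 0.31 in L/L, -0.54 to -0.27 for the S/S minus the L/L effect and -0.59 to -0.28 between the wild types. Members passing between the wild types (12) were 3 without both male arrays, 32 with array weights, 22 without both arrays numbered 1 of the S set, and 7 to 22 with single arrays left out; Melk, Kif20a and Plk1 passed in all 21 alternatives. Array weights gave 3 passing members in S/S (Cdk1, Cenpa and Bub1b) and 4 for the difference between effects (those and Melk), where all other alternatives gave 0. The weights of S-set wild-type arrays 1 to 3 were 0.08, 5.88 and 0.79, so that group rested mainly on array 2. Of all genes, 24 passed in S/S, against 37 with the replicate number as a block, 37 without male arrays, 12 with median centring, 44 with each set alone, 415 with array weights, 3 without both arrays 1 of the S set, 70 without S-set wild-type array 1 and both male arrays, and 2 to 38 with single arrays left out. In L/L 8 passed, against 5 with the block, 2 without male arrays, 5 with the set alone, 336 with weights, 42 without both arrays 1 of the S set and 2 to 26 with single arrays left out. For the difference between effects 3 passed, against 8 with quantile normalization, 293 with weights, 8 without both arrays 1 of the S set, 6 without S-set wild-type array 1 and both male arrays, and 3 to 21. Between the wild types 1736 passed, against 304 without male arrays, 2686 with quantile normalization, 6520 with weights, 2870 and 813 under the last alternatives named, and 525 to 2078. Mki67 in S/S (0.09) turned to -0.26 with weights, -0.31 without both arrays 1 of the S set, -0.20 without S-set wild-type array 1 and both male arrays, and ran from -0.20 to 0.29 with single arrays left out. Its difference between effects (0.20) turned to -0.15 with weights, -0.19 without both arrays 1 and ran from -0.091 to 0.40 with single arrays left out, and its L/L value (-0.11) to 0.0025 without L-set wild-type array 3. In L/L, Foxm1 (0.17) turned to -0.018 without male arrays, with or without S-set wild-type array 1, and to -0.026 without L-set wild-type array 1; Top2a (0.05) turned to -0.20 in the first and ran from -0.089 to 0.22 with single arrays left out. The cause was not tested. Leaving out both arrays 1 of the S set, or S-set wild-type array 1 with the male arrays, was chosen after seeing the data. Deviations of same-numbered arrays correlated at 0.39, 0.47 and -0.12 in the S set and 0.60, 0.06 and 0.36 in the L set. Arrays of different numbers correlated at -0.60 to 0.59 in the S set and -0.52 to 0.21 in the L set. In the L set both male arrays are number 1. With 3 arrays a group these values cannot decide whether the numbers pair the arrays. The block left 0 members passing in each mutant and could not be fitted between the wild types, whose sets share no block.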
